A study of Homo sapiens with 8 samples.

Results

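HIF-1β binding in 4 hypoxic cancer cell lines was divided into 2 classes of genomic regions, those bound mainly in T47D and HCT-116 cells and those bound mainly in PC3 and A549 cells. Peaks of all 8 libraries were merged wherever they overlapped by at least 1 bp, and each merged region was scored as present or absent in each library. A region present in 3 or 4 of the 4 libraries of T47D and HCT-116 and in 0 or 1 of the 4 libraries of PC3 and A549 entered the T47D/HCT-116 class, and the reverse pattern defined the PC3/A549 class. Of 8362 merged regions, 739 (8.84%) fell into the T47D/HCT-116 class and 191 (2.28%) into the PC3/A549 class. The members were selected on the presence of peaks, and the lines were put on sides by the share of their peaks at promoters. The promoter shares and distances of the classes are therefore given as a description without a test.

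Every library came from cells exposed to 0.5% oxygen for 16 h and was immunoprecipitated with a rabbit polyclonal antibody against HIF-1β, with 2 replicates of each line. T47D is a breast cancer line, HCT-116 a colorectal, PC3 (PC-3 in the labels) a prostate and A549 a lung cancer line, so each side joins lines of different tissues. No normoxic or control library was analysed here, and hypoxia was common to both sides. Peak lists hold no expression or genotype data, so the identity of the lines was not checked.

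HIF-1β, also called ARNT, is the common partner of the HIF-α subunits, which are degraded when oxygen is plentiful and accumulate in hypoxia. The dimers recognise a short core in which either A or G precedes CGTG, within hypoxia response elements of genes for glycolysis, angiogenesis and other adaptations to low oxygen. HIF-1β also partners other proteins of its family, among them the aryl hydrocarbon receptor. HIF dimers are known to bind mostly DNA that is already accessible in a given cell type, both at promoters and at enhancers. AP-1, a family of JUN and FOS dimers, is a common occupant of enhancers in epithelial and cancer cells.

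To show the motifs counted below in their sequence, the central 200 bp of 8 high-ranking regions are printed here. They were picked as illustrations and are regions present in all 4 libraries of one side and in none of the other, on GRCh37, plus strand, 5′ to 3′. Capitals mark the HIF core, ACGTG or GCGTG on either strand (CACGT or CACGC when read on the other strand), and the AP-1 motif TGACTCA or its complement TGAGTCA. The first 4 belong to the T47D/HCT-116 class at promoters, the fifth to the same class away from promoters, and the last 3 to the PC3/A549 class away from promoters.
RCOR2 promoter, chr11:63685439-63685638: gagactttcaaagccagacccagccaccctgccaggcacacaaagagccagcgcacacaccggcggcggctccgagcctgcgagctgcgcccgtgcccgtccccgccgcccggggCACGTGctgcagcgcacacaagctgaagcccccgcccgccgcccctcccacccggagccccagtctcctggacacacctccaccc
DSTN promoter, chr20:17550502-17550701: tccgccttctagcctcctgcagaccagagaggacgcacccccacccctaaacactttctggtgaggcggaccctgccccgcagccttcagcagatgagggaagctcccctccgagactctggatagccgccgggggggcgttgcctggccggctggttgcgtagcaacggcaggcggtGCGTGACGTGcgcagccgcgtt
SLC1A1 promoter, chr9:4490231-4490430: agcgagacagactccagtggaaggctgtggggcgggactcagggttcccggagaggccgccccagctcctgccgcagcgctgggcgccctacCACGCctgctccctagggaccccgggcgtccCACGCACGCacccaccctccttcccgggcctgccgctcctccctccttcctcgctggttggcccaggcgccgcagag
PKD1 promoter, chr16:2186196-2186395: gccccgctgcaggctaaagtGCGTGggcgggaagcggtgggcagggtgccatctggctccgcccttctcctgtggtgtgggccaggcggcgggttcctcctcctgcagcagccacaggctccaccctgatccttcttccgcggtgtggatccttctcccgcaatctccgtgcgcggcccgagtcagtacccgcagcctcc
Region nearest to TNS1, chr2:218621227-218621426: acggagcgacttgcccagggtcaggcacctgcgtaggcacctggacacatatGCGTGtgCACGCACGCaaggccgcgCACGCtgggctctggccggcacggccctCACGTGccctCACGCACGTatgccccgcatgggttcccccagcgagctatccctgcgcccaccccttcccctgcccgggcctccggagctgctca
Region nearest to MAF, chr16:80061166-80061365: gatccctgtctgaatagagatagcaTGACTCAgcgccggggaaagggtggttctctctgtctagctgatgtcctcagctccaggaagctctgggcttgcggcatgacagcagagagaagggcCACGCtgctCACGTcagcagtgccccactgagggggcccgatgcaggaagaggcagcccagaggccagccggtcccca
Region nearest to DPT, chr1:168721493-168721692: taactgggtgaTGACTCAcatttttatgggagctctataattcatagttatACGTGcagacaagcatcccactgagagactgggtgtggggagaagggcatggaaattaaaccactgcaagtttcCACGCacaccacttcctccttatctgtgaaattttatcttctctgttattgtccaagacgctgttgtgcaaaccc
Region nearest to EYA2, chr20:45588072-45588271: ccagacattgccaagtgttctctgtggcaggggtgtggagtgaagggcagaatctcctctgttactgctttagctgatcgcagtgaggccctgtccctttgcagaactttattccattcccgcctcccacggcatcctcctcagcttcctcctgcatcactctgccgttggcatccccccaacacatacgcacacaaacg

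The promoter sequences were rich in G and C, at 73% for RCOR2, 73.5% for SLC1A1, 69% for PKD1 and 67.5% for DSTN, and carried HIF cores without an AP-1 motif. The TNS1 region held 8 copies of the core within 200 bp. Copies were counted on both strands, so a CACGTG, as in this region, gave 2. The MAF and DPT regions each held an AP-1 motif and 2 HIF cores, whereas the EYA2 region, the highest-ranking of its class among regions in all 4 libraries of the side and none of the other, held neither. Regions not printed include others of the opposite kind, such as the HAPSTR1 promoter of the T47D/HCT-116 class, with 51% GC and no core, and the CNNM1 promoter of the PC3/A549 class, with 75.5% GC, 3 cores and no AP-1 motif.

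The length of the peak lists differed between the sides and bears on every count of presence. The lists of T47D held 3061 and 2910 peaks in replicates 1 and 2, and those of HCT-116 held 3790 and 1913 in replicates 2 and 3. On the other side, PC3 reached 1042 (replicate 1) and 2891 (replicate 2), and A549 1768 (replicate 2) and 1270 (replicate 3). The mean was 2916 ± 773 (SD, n = 4 libraries) for T47D and HCT-116 and 1742 ± 823 (SD, n = 4) for PC3 and A549, and the ranges overlapped. Over the 4 lines the difference of 1174 peaks gave p = 0.333 (exact permutation test, two-sided), which is the smallest value that 6 divisions of 4 lines into 2 sides can give. The lists hold no reads, so depth is unknown, and its part in list length was not tested.

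The share of peaks within 2 kb of a protein-coding gene start, by which the lines were divided, was 51.8% and 50.3% in T47D and 55.8% and 52.9% in HCT-116. It was 32.9% and 30.2% in PC3 and 23.2% and 24.3% in A549. With lists of equal length, the 1000 highest-scoring peaks of each library, the shares were 50.7%, 50%, 52.6% and 51.8% on the first side and 33.1%, 31.0%, 22.3% and 23.8% on the other. The ranges of the sides did not overlap in the shortened lists either.

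**Figure D1:**
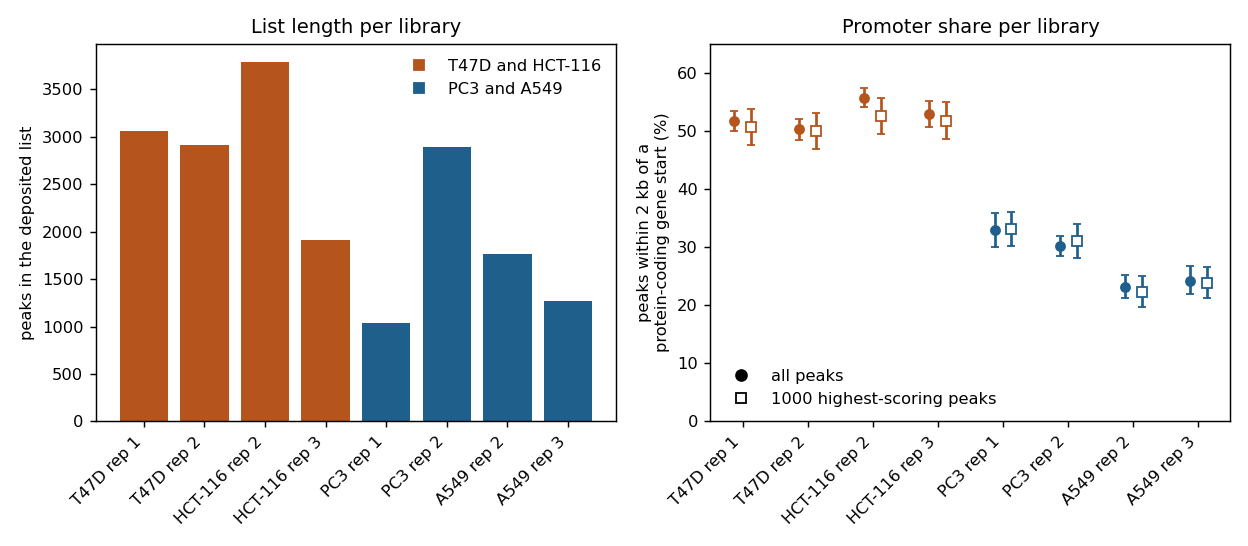
Left, the number of peaks in the deposited list of each library; right, the percentage of its peaks within 2 kb of a protein-coding gene start, for all peaks (filled circles) and the 1000 highest-scoring peaks (open squares), with 95% exact binomial intervals. List lengths overlap between the sides, while the promoter shares lie between 50% and 55.8% in T47D and HCT-116 and between 22.3% and 33.1% in PC3 and A549.

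Single libraries contributed unequally to the classes. Of the 429 T47D/HCT-116 regions present in 3 of 4 libraries of their side, 262 (61.1%) were missing from HCT-116 replicate 3, the shortest list of that side, and 9 from HCT-116 replicate 2, the longest. Of 131 such PC3/A549 regions, 100 (76.3%) were missing from PC3 replicate 1, the shortest list of all, and 1 from PC3 replicate 2. Where a region of the T47D/HCT-116 class had a peak in 1 library of the other side, that library was PC3 replicate 2 in 216 of 281 cases. For the PC3/A549 class it was HCT-116 replicate 2 in 42 of 55 cases, and T47D replicates 1 and 2, whose lists were also long, in 3 and 8. With PC3 replicate 1 left out, so that 2 of 3 libraries sufficed, the PC3/A549 class grew from 191 to 641 regions, and leaving out another library of that side gave 472 to 535.

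All 4 libraries of the own side and none of the other held 150 T47D/HCT-116 regions and 43 PC3/A549 regions. Just inside the threshold, 121 regions were in 3 libraries of T47D and HCT-116 and 1 of the other side, of which 79.3% lay at promoters. Just outside it, 47 regions in 3 and 2 libraries had a promoter share of 63.8%, 250 regions in 2 and 1 had 44%, and 1411 regions in 2 and 0 had 42.2%. For the PC3/A549 class, the 38 regions just inside, in 3 libraries of the own side and 1 of the other, had a share of 15.8%. Just outside, the 80 regions in 3 and 2 libraries had 13.8%, the 115 in 2 and 1 had 19.1%, and the 592 in 2 and 0 had 6.25%. The 233 regions present in all 8 libraries had a share of 59.7%.

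**Figure D2:**
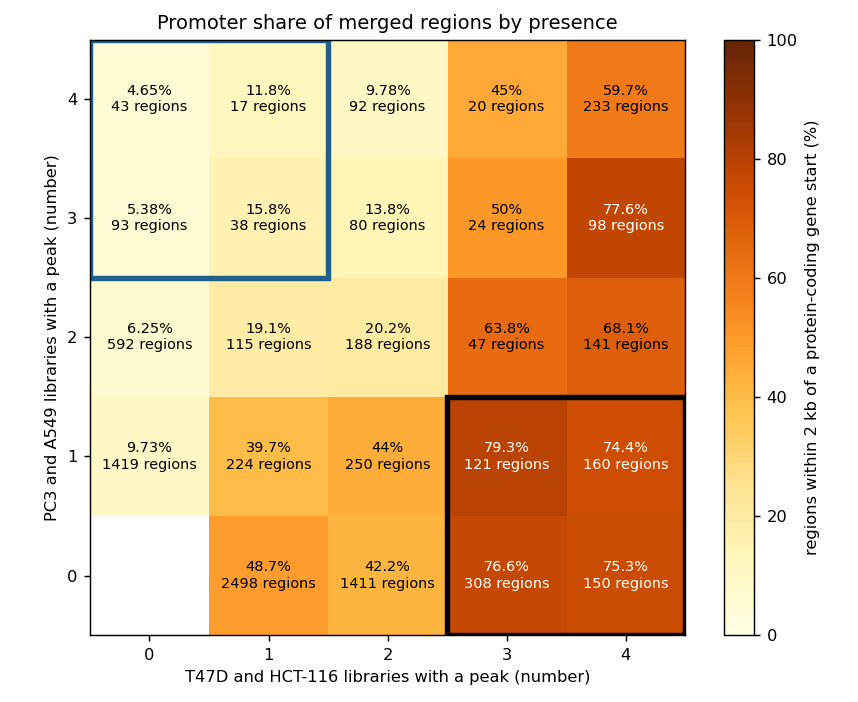
Percentage of merged regions within 2 kb of a protein-coding gene start, with their number, by how many libraries of T47D and HCT-116 (horizontal) and of PC3 and A549 (vertical) held a peak. The black frame encloses the 739 regions of the T47D/HCT-116 class, with shares from 74.4% to 79.3%, and the blue frame the 191 of the PC3/A549 class, with shares from 4.65% to 15.8%.

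The T47D/HCT-116 class lay on gene starts. Of its 739 regions, 564 (76.3%, 95% exact binomial interval 73.1 to 79.3) were within 2 kb of a protein-coding gene start and 515 (69.7%) covered the start itself, so that the median distance was 0 bp. Only 15 of the 191 PC3/A549 regions (7.85%, interval 4.46 to 12.6) were at promoters, and their median distance was 43455 bp (quartiles 14330 and 107618 bp). Of these 191, 87 (45.5%) lay over 50 kb and 51 (26.7%) over 100 kb from any such start. Among all merged regions, 38.3% were at promoters and the median distance was 11749 bp. Intervals cover counting error only, since regions of a library are not independent replicates.

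**Figure D3:**
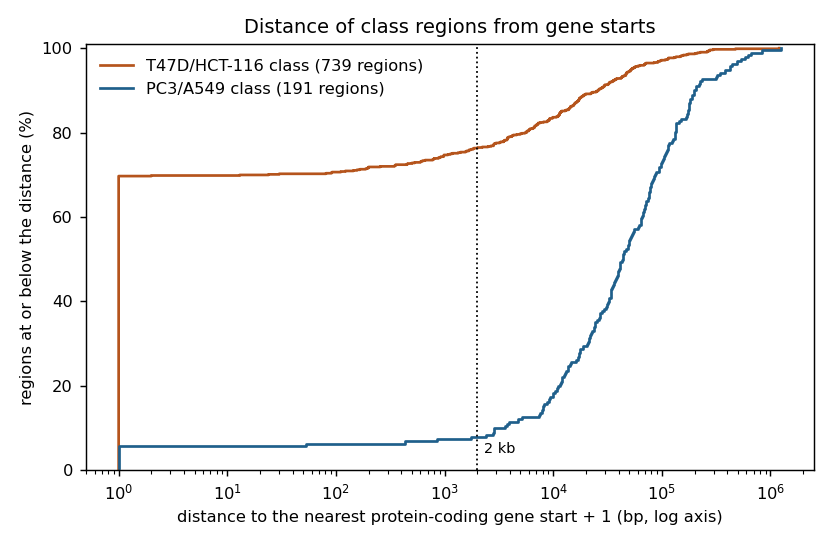
Cumulative percentage of regions by distance to the nearest protein-coding gene start, plotted as distance + 1 bp on a log axis, for the 739 T47D/HCT-116 and the 191 PC3/A549 regions; the dotted line marks 2 kb. The T47D/HCT-116 curve starts at 69.7%, the regions over a start, while the PC3/A549 curve starts at 5.76% and climbs mainly beyond 10 kb.

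With equal lists of 1000 peaks, 165 regions met the T47D/HCT-116 rule and 136 the PC3/A549 rule. Their promoter shares were 77.6% and 6.62%, and the median distances were 0 bp and 49281 bp. Of the 165, 109 (66.1%) overlapped a region of the class from the full lists, and of the 136, 82 (60.3%) did. With lists of equal length the numbers of the classes came closer to each other, from 739 and 191 to 165 and 136. The contrast in position stayed, but the lines were divided by promoter share, so it is a description. Equal length is not an equal score limit. The lowest score kept was 52.0 in PC3 replicate 1 and 166 in HCT-116 replicate 2. With scores of at least 100 in every library, the classes held 329 and 76 regions.

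A 500-bp promoter gave 72.8% for the T47D/HCT-116 class. With the starts of every protein-coding transcript in place of 1 start per gene, 88.1% of T47D/HCT-116 and 17.8% of PC3/A549 regions were at promoters, and the median distance of the latter fell to 17740 bp. The share of the T47D/HCT-116 class was lower when any library of its side was left out, at 51.4% without HCT-116 replicate 2, 55.4% without HCT-116 replicate 3 and 64.5% without either T47D replicate. Presence in 2 of 3 libraries, both of which could be of 1 line, then sufficed.

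The promoter regions of the T47D/HCT-116 class were rich in CpG, as are most promoter regions in these lists. Their median GC content was 68.5% (quartiles 64 and 72.5) and their median ratio of observed to expected CpG was 0.892, with 93.8% above 0.6. Over all 3206 promoter regions the medians were 67.5% and 0.855. Of the 564 regions, 129 (22.9%) served the starts of at least 2 genes and 98 (17.4%) had starts on both strands, against 642 and 519 (16.2%) of all 3206 promoter regions. The HIF core was in the central 200 bp of 74.5% of them (interval 70.7 to 78.0), against 68.5% of all promoter regions, and of 22.7% of 200-bp flanks at a distance of 5 kb. The AP-1 motif was in 8 of 564 (1.42%).

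Of the 113 promoter regions in all 4 libraries of T47D and HCT-116 and in none of the other side, the strongest by the mean percentile of their scores within each library were those of RCOR2, HAPSTR1, RAB20, PKD1, DSTN, ACBD6, HNRNPK and SLC1A1. Scores are the values the authors' peak caller gave and were ranked only within a library. The RCOR2 promoter (chr11:63684484-63687021) covered the start of a corepressor of the REST complex and scored 356 and 436 in T47D and 1068 and 587 in HCT-116. Its mean percentile was 95.0, and no peak was listed there in PC3 or A549. RAB20 encodes a small GTPase of endosomes and phagosomes known to respond to hypoxia. Its promoter (chr13:111213180-111214772) scored 210 and 307 in T47D and 319 and 188 in HCT-116. The promoter of PKD1, the gene of polycystin 1, scored 210, 365, 260 and 178 in the same order, at chr16:2185854-2186858, and is uncertain because the gene has near-identical partial copies on the same chromosome. HAPSTR1 at chr16:9183741-9185842 scored 238, 308, 308 and 200 and held no HIF core in its central 200 bp.

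DSTN, which encodes the actin-severing protein destrin, scored 230, 204, 282 and 184 at chr20:17549583-17551493. HNRNPK, which encodes an RNA-binding protein, scored 129, 183, 453 and 199 at chr9:86593721-86596138. SLC1A1, a glutamate transporter gene, scored 145, 136, 290 and 151 at chr9:4489583-4491553. ACBD6, an acyl-CoA binding protein gene, scored 121, 185, 536 and 244 at chr1:180470946-180472740, with 4 copies of GCGTG in its centre.

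Of 20136 protein-coding genes, 703 (3.49%) had a T47D/HCT-116 region within 2 kb of their start. The genes of basic cell functions were counted against this share. The counts are descriptions, since a gene whose promoter holds any peak can more easily enter the class. Any merged region was at the start of 18.99% of all protein-coding genes.

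Genes of splicing factors had a class region in 8 of 72 cases (11.1%), namely HNRNPDL, HNRNPH3, HNRNPK, HNRNPUL2, SRSF1, SRSF3, SRSF4 and SRSF6. Any region was at the start of 44.4% of that list. SRSF4, a serine and arginine-rich splicing regulator, scored 234 and 214 in T47D, 266 and 166 in HCT-116 and 57.0 in PC3 replicate 2, with no peak in the other 3 libraries. SRSF3 scored 206 and 214 in T47D, 223 and 109 in HCT-116 and 77.9 in A549 replicate 2. Heat shock protein and co-chaperone symbols were at 9 of 72 (12.5%), against 34.7% with any region. They included HSP90AB1 and HSP90B1, the cytosolic and endoplasmic reticulum forms of HSP90, and HSPE1 and HSPA9, mitochondrial chaperones. HSPG2, which encodes the matrix proteoglycan perlecan and no chaperone, was 1 of the 9.

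Ribosomal protein genes had 5 of 86 (5.81%), with RPL18 present in all 4 libraries of the side, and mitochondrial ribosomal protein genes 7 of 77 (9.09%), with MRPL39 and MRPL45 in all 4. RAB GTPases had 5 of 62 (8.06%), which are RAB1A, RAB20, RAB21, RAB5B and RAB8A. Near the share of all genes were oxidative phosphorylation with 3 of 81 (3.70%), zinc finger genes with 17 of 508 (3.35%), translation initiation with 2 of 56 (3.57%), Mediator and general transcription with 4 of 92 (4.35%) and the proteasome with 2 of 47 (4.26%). The tRNA synthetase list had 1 of 35, EPRS1, and the histone list 1 of 70, H2BC6. Replication licensing had 0 of 23, mesenchymal genes 0 of 21 and matrix and adhesion genes 0 of 111.

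Of established hypoxia targets, 0 of 22 glycolysis genes and 1 of 40 other HIF targets (2.5%) had a class region, against 3.49% of all genes. Lists of this size are too short to tell such counts from that share. The rule leaves out regions present in all 8 libraries, and many of these targets had such a region. None of 22 glycolysis genes had a T47D/HCT-116 region at the start, although 15 (68.2%) had some region there and 13 had one in all 8 libraries. Of 40 other HIF targets 31 (77.5%) had a region, 21 in all 8 libraries, and VEGFA alone had one of the class. The VEGFA promoter region (chr6:43736824-43740019), at the gene of the main angiogenic growth factor, scored 376 and 206 in T47D and 162 and 98.3 in HCT-116. It scored 54.6 in PC3 replicate 2, near the lowest listed score of 50, and no peak was listed in PC3 replicate 1 or in A549.

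Epithelial and luminal genes had 3 of 33 (9.09%). ESRP1 and ESRP2 are epithelial splicing regulators, and CLDN3 is a tight junction gene. ESRP1 scored 348, 186, 165 and 54.5 in T47D and HCT-116 and was not listed in PC3 or A549. CLDN3 scored 105, 188, 77.1 and 67.5, with 65.1 in PC3 replicate 2. CYP1A1, the classical target of the aryl hydrocarbon receptor, had a region in 3 libraries, with scores of 80.6 in T47D replicate 1 and 152 and 139 in HCT-116. It was 1 of 18 genes of the aryl hydrocarbon receptor and NRF2 list. JUN, an AP-1 subunit and 1 of 13 genes of that family, and YAP1, the Hippo coactivator and 1 of 19 listed with the TEAD factors, each had a class region at the promoter in 3 libraries of the side. JUN was also nearest to a distal PC3/A549 region, 145055 bp from its start, with 2 copies of ACGTG and an AP-1 motif, which scored 55.9 in PC3 replicate 2 and 107 and 104 in A549. Receptor and MAPK signalling genes had 0 of 24 and inflammatory genes 0 of 20.

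In contrast, 16 genes (0.0795% of 20136) had a PC3/A549 region within 2 kb of their start. The 2 present in all 4 libraries and none of the other side were CNNM1 and AL590560.1. CNNM1, a gene of a cation transport family, scored 116.5 and 294 in PC3 and 77.5 and 66.0 in A549 at chr10:101088126-101091195. AL590560.1 scored 141, 465, 70.2 and 53.7 at chr1:159879659-159881096. GCLC, which encodes the catalytic subunit of the enzyme that begins glutathione synthesis, was the 1 of 18 listed genes of the aryl hydrocarbon receptor and NRF2 pathways at a promoter, and scored 115 in PC3 replicate 2 and 126 and 62.9 in A549. The zinc finger gene ZNF786 was 1 of 508. A further pair of promoters was named after their values were seen, VEGFC, a lymphangiogenic growth factor gene, and STC1, a stanniocalcin gene. VEGFC scored 69.2 in PC3 replicate 2 and 129 and 118 in A549, and STC1 scored 104, 51.9 and 82.9 in the same libraries.

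The 15 promoter regions of the PC3/A549 class had a median GC content of 53% and a CpG ratio of 0.486, with 6 of 15 above 0.6. The HIF core was in 14 of 15 and the AP-1 motif in 5 of 15 (33.3%, interval 11.8 to 61.6), against 3.12% of all promoter regions. The number of regions is small and the interval wide.

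Away from promoters the classes were nearly equal in number, with 175 T47D/HCT-116 and 176 PC3/A549 regions over 2 kb from a protein-coding gene start. They differed in composition. The median GC content was 66% in the former and 48.5% in the latter, against 52% in all 5156 distal regions, and the CpG ratio was 0.798 against 0.281, with 0.320 in all. The CpG ratio was above 0.6 in 74.3% of distal T47D/HCT-116 and 7.95% of distal PC3/A549 regions. Many of the former lay at starts that the single start per gene does not include. Some annotated transcript start of any gene type was within 2 kb in 132 of 175 (75.4%), against 37 of 176 (21.0%) and 33.3% of all distal regions. The start of a long non-coding RNA gene was within 2 kb in 32.6% and 6.82%, and another start of a protein-coding gene in 49.7% and 10.8%. By the position of their centres, 36% of distal T47D/HCT-116 regions were intergenic, 34.3% intronic and 29.7% exonic. Of the PC3/A549 regions 56.25% were intergenic, 40.3% intronic and 3.41% exonic.

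In distal regions the A form of the HIF core had the higher share in the PC3/A549 class and the G form in the T47D/HCT-116 class, while the intervals of the core in either form overlapped. The core was in 122 of 175 (69.7%, interval 62.3 to 76.4) T47D/HCT-116 and 126 of 176 (71.6%, interval 64.3 to 78.1) PC3/A549 distal regions. In all distal regions it was in 57.8%. The A form, ACGTG, was in 38.3% of the former and 61.4% of the latter, and the G form, GCGTG, in 49.7% and 21.0%, against 39.3% and 28.3% of all distal regions. Without HCT-116 replicate 2 or 3 the G form was in 30.7% and 32.5% of distal T47D/HCT-116 regions, against 22.6% and 23.4% of PC3/A549, and with 4 libraries against 0 the A form was in 62.2% and 78.0%. In whole regions the order of the A form turned, at 89.7% and 87.5%. Of the regions with a core, 35 of 122 held only the A form and 55 only the G form in the T47D/HCT-116 class. In the PC3/A549 class 89 of 126 held only the A form and 18 only the G form. In 200-bp flanks at a distance of 5 kb, the G form was in 18.9% beside T47D/HCT-116 and 13.1% beside PC3/A549 distal regions, and the A form in 10% and 8.24%. Both cores contain a CpG, and the part of base composition in the difference was not tested beyond the GC limit given with the alternatives.

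The AP-1 motif TGACTCA was in 8 of 175 (4.57%, interval 1.99 to 8.81) distal T47D/HCT-116 regions and 55 of 176 (31.25%, interval 24.5 to 38.7) distal PC3/A549 regions. All distal regions had 16.8%, and the flanks of the classes had 3.14% and 2.84%. Of the 55 PC3/A549 regions with an AP-1 motif, 43 also held a HIF core, and the core was in 78.2% of regions with the motif and 68.6% of those without it. Both motifs were thus in 24.4% of distal PC3/A549 regions, 2.86% of distal T47D/HCT-116 regions and 10.1% of all.

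GGGCGG, the GC box of SP factors, was in 49.1% of distal T47D/HCT-116 and 4.55% of distal PC3/A549 regions. TTGCNNAA, a C/EBP motif, was in 5.71% and 16.5%, ACATTCC, a TEAD motif, in 1.71% and 10.2%, and AGATAA, bound by the GATA family, in 2.86% and 11.4%. Their shares in all distal regions were 15.9%, 10.3%, 5.51% and 9.39%. All were searched on both strands of the central 200 bp. CACGTG, the E-box, contains ACGTG and was in 8% and 4.55%, and TTGCGTG, the response element of the aryl hydrocarbon receptor, contains GCGTG and was in 4.57% and 1.14%. A match describes the letters in the window and no bound factor.

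**Figure D4:**
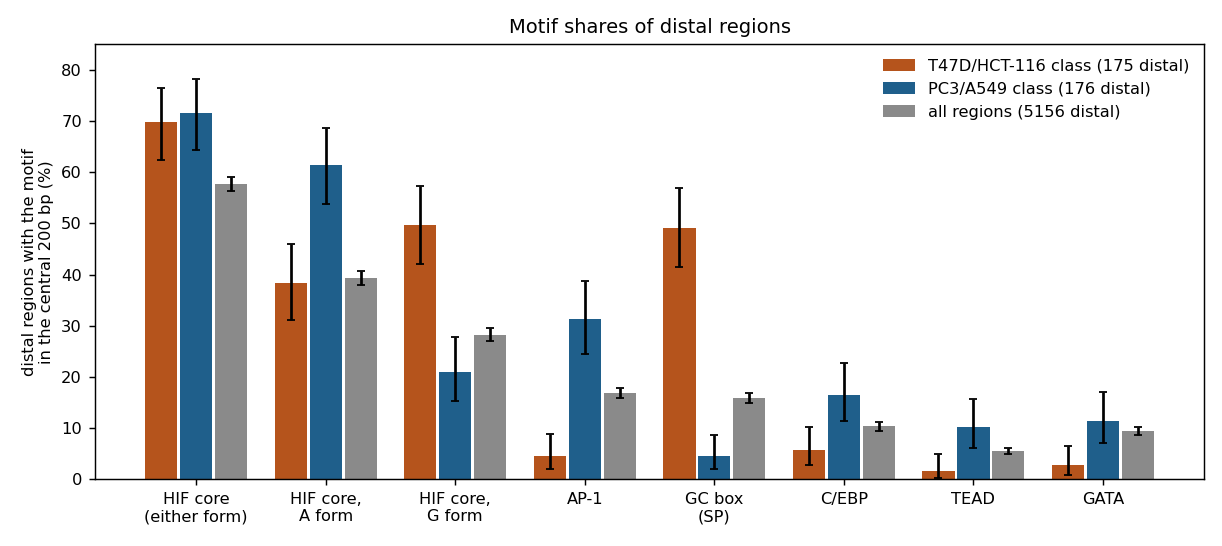
Percentage of distal regions with each motif in the central 200 bp, for the T47D/HCT-116 class, the PC3/A549 class and all merged distal regions; bars start at 0 and have 95% exact binomial intervals. The HIF core in either form is at 69.7% and 71.6% in the classes, whereas AP-1 is at 4.57% and 31.25% and the GC box at 49.1% and 4.55%.

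Since GC content and nearby transcript starts moved with the class, the motifs were also counted in distal regions without such starts and in those of lower GC content, in alternatives chosen after seeing the data. Among the 43 T47D/HCT-116 and 139 PC3/A549 distal regions without any transcript start within 2 kb, the AP-1 motif was in 11.6% (interval 3.89 to 25.1) and 28.1% (20.8 to 36.3), and these intervals overlapped. The HIF core was in 67.4% and 70.5%, the A form in 46.5% and 62.6% and the G form in 34.9% and 18.0%. Among the 50 and 154 distal regions with GC content under 60%, AP-1 was in 8% (2.22 to 19.2) and 32.5% (25.2 to 40.5), the HIF core in 58% (43.2 to 71.8) and 73.4% (65.7 to 80.2), the A form in 32% and 65.6% and the G form in 32% and 18.2%. The C/EBP motif was in 14% (5.82 to 26.7) and 16.9% (11.3 to 23.8) of these, and these intervals overlapped, while the TEAD motif was in 1 of 50 and 17 of 154.

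In the PC3/A549 class the A form of the core and the AP-1 motif were concentrated at the centre of the regions. ACGTG was in 31.8% and 30.7% of distal regions in the 100-bp bins on either side of the centre, and in 5.11% at 900 to 1000 bp. AP-1 was in 15.9% and 14.8% in the central bins and 1.70% in the outer bin. In the T47D/HCT-116 class GCGTG was in 26.3% and 33.1% in the central bins and still in 20% and 21.7% in the bins centred 250 bp away and in 12% in the outer bin. ACGTG was also more frequent near the centre in this class, at 18.3% and 20% in the central bins. It was in 12.6% and 22.9% in the bins centred 150 bp away and in 3.43% in the outer bin. AP-1 stayed at or below 2.86% in all of the 6 bins nearest to the centre.

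Whether the distal motif shares differ between the sides was tested on each library's own distal peaks, whether or not they were in a class. The AP-1 motif was in 4.27% and 4.71% of distal peaks in T47D and in 20.4% and 20% in HCT-116. It was in 20.8% and 23.6% in PC3 and 22.8% and 22.3% in A549. HCT-116 thus lay close to PC3 and A549, and T47D stood apart from all of them. The means were 12.3% and 22.4%, and the difference of 10.1 percentage points gave p = 0.333 (exact permutation test over 4 lines, two-sided, adjusted p = 0.852 by Benjamini-Hochberg over 23 motifs). When a T47D library was left out, the AP-1 share of distal T47D/HCT-116 regions rose to 16.7% without replicate 1 and 15.8% without replicate 2. Presence in 2 of 3 libraries then sufficed, which both HCT-116 libraries could supply, and the class grew to 1381 and 1389 regions, so the absence of a T47D library and the looser rule cannot be told apart.

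The HIF core was in 53.4% and 55.4% of distal peaks in T47D, 66.4% and 69.3% in HCT-116, 72.5% and 57.7% in PC3 and 59.8% and 73.3% in A549. The means of the sides, 61.1% and 65.8%, differed by less than the libraries of PC3 or of A549 did from each other (p = 1, exact permutation test over 4 lines). GGGCGG was in 21.6% to 28.4% of distal peaks in T47D and HCT-116 and 12.2% to 13.8% in PC3 and A549, and GCGTG in 30.7% to 37.6% and 24.3% to 29.5%. These ranges did not overlap, and each gave p = 0.333, the smallest possible, with an adjusted p of 0.852 (exact permutation test over 4 lines). The ranges of ACGTG did overlap, at 33.4% to 47.8% in T47D and HCT-116 and 42.7% to 59.0% in PC3 and A549. So did those of the C/EBP and GATA motifs, whereas those of TEAD did not. Distal peaks include those at transcript starts other than the 1 per gene. Among all merged distal regions GGGCGG was in 15.9%, and in 8.95% of those without any transcript start within 2 kb. The part of such starts in the ranges was not tested. Of 23 motifs, 6 had ranges that did not overlap between the sides, 3 higher on each. With 2 lines on a side no motif could pass a threshold of 0.05 in this exact test.

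**Figure D5:**
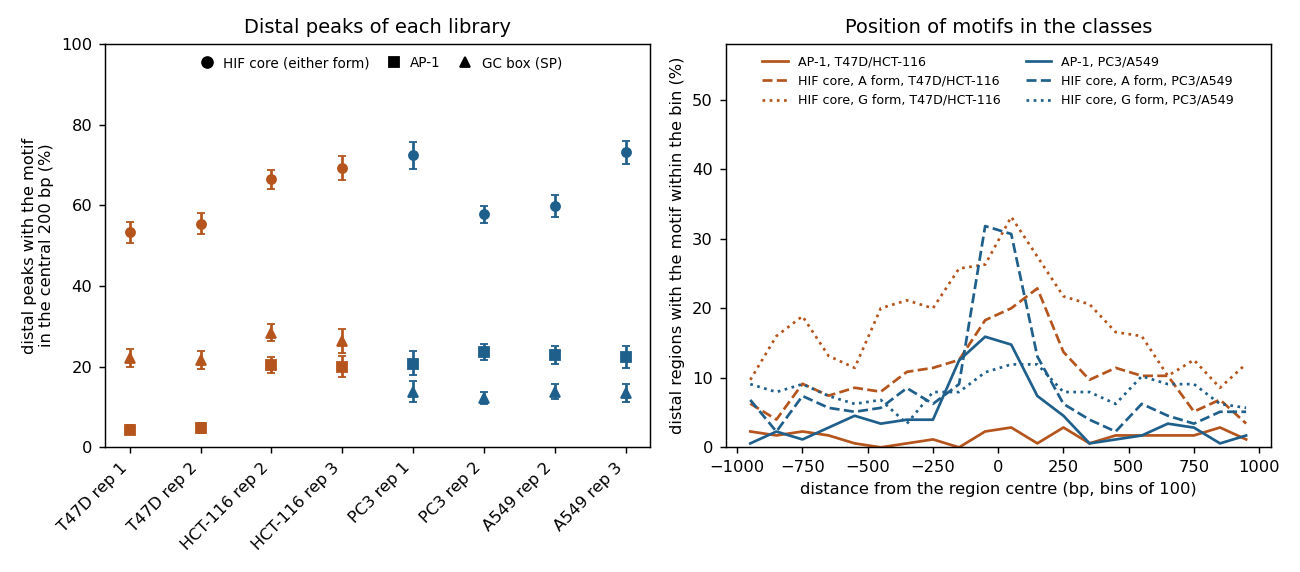
Left, percentage of each library's distal peaks with the HIF core, the AP-1 motif or the GC box in the central 200 bp, with 95% exact binomial intervals; right, percentage of distal class regions with AP-1, the A form or the G form of the HIF core within each 100-bp bin around the region centre. AP-1 is at 4.27% and 4.71% in T47D and from 20% to 23.6% in the other 6 libraries, and in the PC3/A549 class both AP-1 and the A form peak at the centre. The A form is also higher near the centre than at the edges in the T47D/HCT-116 class.

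Distal T47D/HCT-116 regions were nearest to 168 genes (0.834% of 20136) and distal PC3/A549 regions to 167 (0.829%). The nearest gene is a label of position and need not be the target. The 8 strongest distal T47D/HCT-116 regions present in all 4 libraries of the side and none of the other were nearest to TNS1, SRL, DECR1, EEF1A1, YY1, SLC25A26, VPS53 and EED. The TNS1 region (chr2:218620665-218622041), 276664 bp from the start of that focal adhesion gene, scored 105 and 193 in T47D and 530 and 329 in HCT-116. The regions near YY1 and EEF1A1, which encode a zinc finger transcription factor and a translation elongation factor, were only 2017 and 3519 bp from the gene start and had their centres in exons, and EEF1A1 has many processed copies, so its peaks are uncertain. The EED, VPS53 and SLC25A26 regions also had their centres in exons, which made 5 of the 8. The DECR1 region had its centre in an intron of another gene, NBN. Some transcript start lay within 2 kb of 75.4% of distal T47D/HCT-116 regions, so regions among these 8 may be promoters by other starts.

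By the same ranking, the strongest of the 41 distal PC3/A549 regions in all 4 libraries of the side and none of the other were nearest to EYA2, LPCAT1, SPDYE17, SUMF1, MAF, CP, DPT and PPP2R2A. The EYA2 region (chr20:45587217-45589172) was intronic, 63954 bp from the start of this transcriptional coactivator gene, and scored 525 and 1130 in PC3 and 811 and 434 in A549, with no peak in T47D or HCT-116. Its mean percentile of 95.5 was close to the 95.0 of RCOR2. The LPCAT1 region (chr5:1568024-1569548), 43947 bp from the start of a phospholipid remodelling gene, scored 185, 592, 815 and 646. The CP region (chr3:148942390-148943918) was 2774 bp from the start of ceruloplasmin, a copper-carrying ferroxidase and known hypoxia target, and scored 123, 453, 525 and 280. The MAF region (chr16:80060575-80061967) was 425941 bp from the start of that bZIP transcription factor gene and scored 145, 214, 581 and 493. SPDYE17 belongs to a family of near-identical copies on chromosome 7, so its peaks are uncertain. In 6 of these 8 the HIF core was in the central 200 bp, and the AP-1 motif was in those of SUMF1, MAF and DPT.

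Of 40 HIF targets other than glycolysis genes, 4 were nearest to a distal PC3/A549 region, namely NDRG1, LOXL2, ARRDC3 and EPAS1. A distal T47D/HCT-116 region was nearest to 2, MXI1 and ZNF395. Over all protein-coding genes these shares were 0.829% and 0.834%. How many genes of a list were nearest to any distal region was not counted, so the list counts are descriptions. EPAS1 encodes HIF-2α itself. The region near it (chr2:46300273-46301563), 219243 bp from the start, had its centre in an exon within another gene, PRKCE. It scored 154 and 308 in PC3 and 151 and 117 in A549, and had no peak in T47D or HCT-116. Both forms of the HIF core and an AP-1 motif were in its centre. ARRDC3, an arrestin-domain gene, had a region 323785 bp away, in an intron of ADGRV1, with scores of 109, 364, 72.5 and 195. The PFKFB3 region (chr10:6321032-6322147), 134135 bp from the start of this activator of glycolysis, was the 1 of 22 glycolysis genes. It scored 64.5 in PC3 replicate 2 and 536 and 311 in A549, and was missing from PC3 replicate 1. MXI1, an antagonist of MYC, had a region 18188 bp from its start with 7 copies of GCGTG, which scored 66.4 and 76.1 in T47D and 216 in HCT-116 replicate 2.

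Receptor and MAPK signalling genes were nearest to a distal PC3/A549 region in 3 of 24 cases, against 0.829% of all protein-coding genes. EGFR, the epidermal growth factor receptor, had a region 50737 bp from its start (chr7:55034517-55035973) with scores of 54.6 and 268 in PC3 and 277 and 173 in A549, and with both forms of the HIF core and an AP-1 motif in its centre. MET, the hepatocyte growth factor receptor, scored 128 in PC3 replicate 2 and 86.5 and 53.6 in A549. DUSP5, a phosphatase of ERK, scored 53.5 in PC3 replicate 2 and 504 and 451 in A549. Inflammatory genes were nearest in 2 of 20. LIF, a cytokine of the interleukin 6 family, had a region with scores of 62.0 and 361 in PC3 and 1787 and 624 in A549, and also 77.5 in HCT-116 replicate 2. CCL20, a chemokine, scored 60.4 and 104 in PC3 and 296 and 261 in A549.

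HMOX1, haem oxygenase 1, and SLC7A11, the cystine transporter, were nearest to distal PC3/A549 regions, 2 of 18 genes of their list, and each region also had a peak in HCT-116 replicate 2. Integrin genes ITGB1 and ITGB5 were nearest in 2 of 111 matrix and adhesion genes, against 0.829% of all protein-coding genes. GATA3, a luminal transcription factor gene, was nearest to 2 distal PC3/A549 regions, 233519 and 657145 bp from its start, each with an AP-1 motif, and EHF to 1 distal T47D/HCT-116 region. The EHF region scored 51.3 and 51.8 in T47D and 56.1 in HCT-116 replicate 2, near the lowest listed scores, and 114 in PC3 replicate 2. Distal PC3/A549 regions were nearest to 0 of 70 histone, 0 of 81 oxidative phosphorylation, 0 of 72 splicing and 0 of 47 proteasome genes. The corresponding counts of distal T47D/HCT-116 regions were also 0. Distal PC3/A549 regions were nearest to 1 of 86 cytosolic ribosomal (RPL31) and 1 of 77 mitochondrial ribosomal protein genes (MRPS23). They were also nearest to 1 of 62 RAB GTPase (RAB10) and 1 of 72 heat shock genes (HSPA8). Against 0.829% of all protein-coding genes, these lists are too short for a 0 to show a lack.

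Most members of a class lay over 100 kb from the next. The 739 T47D/HCT-116 regions formed 665 groups within 100 kb, of which 58 held at least 2 regions and 132 of the 739 in all. The 191 PC3/A549 regions formed 182 groups, of which 7 held at least 2 regions and 16 of the 191 in all. A group of 5 T47D/HCT-116 regions on chromosome 16, within 292 kb (4232920 to 4525253), ran from SRL to HMOX2 and included the promoter of TFAP4, the gene of a helix-loop-helix transcription factor. The TFAP4 region scored 224 and 225 in T47D, 285 and 150 in HCT-116 and 124 in PC3 replicate 2, and had no peak in the other 3 libraries. A group of 4 regions on chromosome 11, all at promoters and within 167 kb (62388465 to 62555558), ran from B3GAT3 to TMEM179B.

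The largest PC3/A549 group held 4 regions within 87.1 kb of chromosome 8 (134308057 to 134395149), all nearest to NDRG1, a gene known to be induced by hypoxia. They lay 2845, 17728, 53273 and 79270 bp from its start, and 3 of the 4 were present in all 4 libraries of PC3 and A549 and in none of T47D or HCT-116. The third scored 52.9 and 108 in PC3 and 488 and 341 in A549, and the fourth 95.9 and 199 in PC3 and 90.3 and 85.7 in A549. None of the 4 had a start of any annotated gene within 2 kb, counting 1 start per gene. The region at 2845 bp differed from the others, with its centre in an exon of NDRG1 and 79% GC. It scored 69.3 and 69.5 in PC3, 68.2 in A549 replicate 2 and 60.8 in HCT-116 replicate 2. Whether this region lies at another transcript start of NDRG1, and so at a promoter, is not given here. Pairs of PC3/A549 regions lay at UPK1B on chromosome 3 and within PRKAG2 on chromosome 7. By chromosome, 17 of 191 PC3/A549 regions (8.90%) were on chromosome 8, against 3.11% of T47D/HCT-116 and 4.90% of all regions. Chromosome 19 held 2.62%, 6.63% and 5.66%. Copy number of the lines was not analysed here, so its part in these counts was not tested.

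Some regions of a class had another peak of the opposite side nearby. Of the 176 distal PC3/A549 regions, 50 (28.4%, interval 21.9 to 35.7) had a separate region with a T47D or HCT-116 peak within 25 kb. Of the 15 promoter PC3/A549 regions, 4 (26.7%) did. A separate region with a PC3 or A549 peak was near 67 of the 564 promoter T47D/HCT-116 regions (11.9%, interval 9.33 to 14.8). It was near 35 of the 175 distal ones (20%). The share over all merged regions was not counted, and lists of T47D and HCT-116 were longer on average, so these shares have no common baseline.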

How the data were processed

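HIF-1β ChIP-seq peak lists of 8 libraries were used, 2 of each line. Per the labels and the study's methods, the authors aligned reads to GRCh37 (hg19) and called peaks in each library with MACS. The submitters' processing notes also name Trim Galore 0.3.3, BWA 0.7.5a-r405, SAMtools 0.1.19, Picard 1.106 and bedtools 2.17.0. Each deposited list gives intervals and a score, made by the authors' peak caller and not explained in a header. Scores were ranked only within a library. Whether the lists had passed T-PIC, a peak caller named in the methods, is not given in the sources used here. Lists hold no reads, so depth is unknown and no interval reflects it.

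Peaks on the 24 main chromosomes were merged by 1 bp of overlap and annotated with GENCODE release 44 lifted to GRCh37, 1 start per protein-coding gene. A region within 2 kb of a start was called a promoter region and any other distal. Motifs were searched on both strands of 200 bp around the mean midpoint of a region's peaks. Shares have 95% exact binomial intervals. Libraries were grouped by the cell line in their labels. List length and motif shares of distal peaks were tested over 4 lines, each the mean of its 2 libraries, with Benjamini-Hochberg adjustment over 23 motifs. Since nothing states that replicates are separate cultures, spread between them may be technical. Alternatives were lists of 1000 peaks, scores of at least 100, central 500 bp of peaks, 4 libraries against 0, each library left out, other promoters and starts, and other motif windows.

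The members, the gene lists and the tests were chosen with earlier results of these data known. The genes named were the 8 strongest promoter and distal regions of each class in 4 libraries against 0, listed genes with a class region, and the 3 densest loci of each class, of which the largest of the T47D/HCT-116 class is not reported here. Motifs named were the HIF core, AP-1 and those with the largest difference between classes. TEAD, GATA, the E-box and the receptor element were named outside that rule.

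Sequences were read with pysam 0.24.0 and samtools 1.23.1, merging was checked with bedtools 2.31.1, statistics came from SciPy 1.17.1 and NumPy 2.4.6, and plots from Matplotlib 3.10.9 under Python 3.11.15. The classification was tested on simulated data, in which 100% of 4773 simulated regions were put in the class they were made for, and 100 of 100 planted motifs were found.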

Additional observations from a re-analysis of the deposited data

Results flagged for a closer look

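The NRF1 motif was in 1.43% of the distal peaks of PC3 replicate 1 and in 0.368% to 0.52% of those of PC3 replicate 2 and both A549 libraries. This library was far from the other 3 of its side relative to their range. Of 52 groups of 4 libraries examined over 26 measures, this was the 1 that stood out, and chance alone would mark about 1 in 20.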

How the results depend on the processing

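Of the differences with a test, recomputed under alternatives, 34 kept their direction and side of the threshold and 1, of the AP-1 share, passed it. In tests over the 4 lines p cannot go below 0.333, so the side of the threshold could not change there and shows no stability. Of 206 counts, shares and distances of single classes, 144 stayed within the interval or 1.5 times the count of the reported value. With lists of 1000 peaks, 165 regions met the T47D/HCT-116 rule. With scores of at least 100 the classes held 329 and 76 regions, AP-1 was in 1.47% of distal T47D/HCT-116 regions, 3.95% of PC3/A549 regions were at promoters and 61.6% of the distal ones held the HIF core. With 4 libraries against 0 they held 150 and 43 regions, and the HIF core was in 83.8% and 85.4% of the distal ones. A 500-bp promoter gave 72.8% of T47D/HCT-116 regions, and the starts of all transcripts 88.1% and 17.8%, with a median distance of 17740 bp for PC3/A549. In the central 500 bp the HIF core was in 93.1% and 89.8% of distal regions and AP-1 in 52.3% of PC3/A549. In whole regions the core was in 100% and 95.5% and AP-1 in 22.9% and 65.3%. Without nearby transcript starts AP-1 was in 11.6% of distal T47D/HCT-116 regions, and at GC under 60% the core was in 58%, both chosen after seeing the data. The order of the classes for the HIF core in distal regions (69.7% in T47D/HCT-116 and 71.6% in PC3/A549) turned with scores of at least 100 (73.5% and 61.6%), with 1000 peaks (75.7% and 71.7%), in the 2 wider windows and without either T47D replicate, PC3 replicate 1 or A549 replicate 3. The wider windows hold more bases. Other causes were not tested.

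Leaving out 1 library gave 777 to 1877 T47D/HCT-116 regions, with 51.4% to 75.7% at promoters, a median distance of 0 to 1139 bp, the HIF core in 57.1% to 72.4%, AP-1 in 3.78% to 16.7%, ACGTG in 35.4% to 44.8% and GCGTG in 30.7% to 51.3% of distal regions. The PC3/A549 class held 220 to 641 regions, with 6.55% to 10.2% at promoters, a median distance of 39697 to 50910 bp, the core in 66.3% to 75.9%, AP-1 in 24.2% to 32.3%, ACGTG in 52.8% to 64.0% and GCGTG in 20.9% to 25.1%.

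Over libraries in place of lines, the AP-1 difference of -10.1 points (T47D/HCT-116 minus PC3/A549) had p = 0.0286 (exact permutation test over 70 divisions), but the libraries of a line are not independent. With the replicate number as a replicate block (24 divisions), list length differed by 1174 peaks (exact permutation p = 0.0833), the HIF core by -4.69 points (p = 0.583) and AP-1 by -10.1 points (p = 0.0833). The labels do not say that a number marks a shared batch, so it pairs no libraries. With 2 lines a side, this exact test over lines cannot go below 0.333, which says nothing about stability. The lists hold no reads, so how far depth limits presence is unknown.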
